A study of Rattus norvegicus with 6 samples.

Results

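Testosterone is made from cholesterol in the Leydig cells of the testis, and the 9 genes followed here encode the proteins of that route and the proteins that feed it electrons. They were taken from the gene table by symbol, in the order of the pathway: Star, Tspo, Cyp11a1, Fdx1, Fdxr, Cyp17a1, Por, Cyb5a and Hsd17b3, which makes 9 of 35291 genes in all. Each symbol matched 1 row, and all 9 genes were among the 20338 genes tested, those with a mean of at least 0.5 FPKM (sequenced fragments scaled by transcript length and library size).

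The libraries came from whole testes of Sprague-Dawley rats, 3 with diabetes (DM) and 3 normal controls (Nor). The DM rats were fed a high-fat diet, received 1 intraperitoneal injection of streptozotocin (STZ, a toxin of pancreatic beta cells), and had been diabetic for 8 weeks when the testes were taken, while the controls were injected with citrate buffer. Rats counted as DM when their blood glucose stayed high. The labels give no age, and the methods do not state plainly whether the controls shared the diet. Each sample is labelled as a separate replicate of its group. Where animals were pooled or split is not stated, so the tests measure the spread between these samples. Below, each sample is called a rat for short.

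The Leydig cell begins steroid synthesis by moving cholesterol into its mitochondria. There a cytochrome P450 cuts the side chain and leaves pregnenolone, drawing its electrons from NADPH through a flavoprotein and a small iron-sulphur protein. Pregnenolone then moves to the endoplasmic reticulum, where a second P450 turns it into androgen precursors with electrons from another reductase, and the last enzyme reduces androstenedione to testosterone. Luteinizing hormone drives the route through its receptor on the Leydig cell.

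Cyp17a1, which encodes the P450 that makes androgen precursors, fell to 0.331 of its Nor level in the diabetic testes and was the only 1 of the 9 genes whose change passed the test over all genes. Star, Cyp11a1 and Hsd17b3 had similar fitted folds, at 0.417 to 0.447 of the Nor level, with a wide spread between the DM rats. Fdx1, Fdxr and Tspo lay closer to the Nor level, and Por and Cyb5a had nearly the same level in both groups. In bulk tissue, fewer Leydig cells and less RNA per Leydig cell cannot be told apart.

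**Figure D1:**
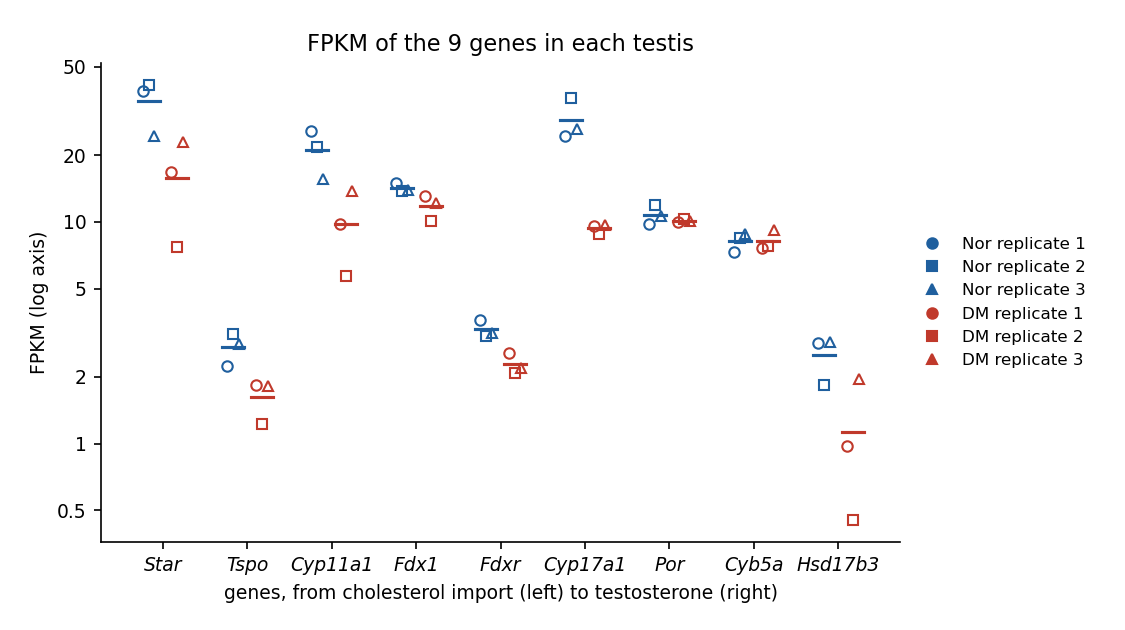
FPKM (log axis) of the 9 genes in each of the 6 testes, ordered from cholesterol import on the left to testosterone on the right; points are rats and bars are group means. The DM rats lie below every Nor rat for Star, Tspo, Cyp11a1, Fdx1, Fdxr and Cyp17a1, and the groups overlap for Por, Cyb5a and Hsd17b3.

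Cholesterol import came first. Star encodes the protein that moves cholesterol to the inner mitochondrial membrane, a step acutely regulated by luteinizing hormone. Star stood at 16.7, 7.70 and 22.8 FPKM in the DM rats and at 38.8, 41.5 and 24.5 FPKM in the Nor rats. The groups did not overlap, but the highest DM rat came close to the lowest Nor rat. The log2 fold change was -1.24 (SE 0.39, 95% interval -2.16 to -0.32), or 0.423 of the Nor level, and did not pass the test (adjusted p = 0.551, limma). Tspo encodes an outer mitochondrial membrane protein that binds cholesterol, whose need in steroid synthesis is debated. Its FPKM was 1.85, 1.22 and 1.81 in DM and 2.24, 3.12 and 2.80 in Nor, again with every DM rat below every Nor rat. The log2 fold change of Tspo was -0.72 (SE 0.21, adjusted p = 0.517, limma).

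Side-chain cleavage, the first enzymatic step, takes place inside the mitochondrion and needs 3 of the proteins. Cyp11a1 encodes the P450 that converts cholesterol to pregnenolone. Fdxr encodes ferredoxin reductase, which takes electrons from NADPH, and Fdx1 encodes ferredoxin, which carries them to the P450. The stretches of 250 bases before the start of these 3 genes, and of Por from the microsomal part of the route, are shown because these genes encode the electron transfer chains of both P450s. They are RefSeq sequences of the rat assembly GRCr8, read 5′ to 3′ on the strand of the gene, and the capitals mark AGGTCA or its reverse complement TGACCT, the six-letter core of many nuclear receptor sites.
Cyp11a1: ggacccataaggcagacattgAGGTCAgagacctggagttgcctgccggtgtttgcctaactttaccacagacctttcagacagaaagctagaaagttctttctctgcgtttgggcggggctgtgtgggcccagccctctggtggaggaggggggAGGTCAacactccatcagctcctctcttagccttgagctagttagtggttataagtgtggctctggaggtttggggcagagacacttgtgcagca
Fdx1: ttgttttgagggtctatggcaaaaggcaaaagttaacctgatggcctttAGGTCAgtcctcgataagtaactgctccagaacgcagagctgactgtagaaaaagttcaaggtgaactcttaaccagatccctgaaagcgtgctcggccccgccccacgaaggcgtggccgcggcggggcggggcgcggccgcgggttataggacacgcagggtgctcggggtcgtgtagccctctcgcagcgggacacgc
Fdxr: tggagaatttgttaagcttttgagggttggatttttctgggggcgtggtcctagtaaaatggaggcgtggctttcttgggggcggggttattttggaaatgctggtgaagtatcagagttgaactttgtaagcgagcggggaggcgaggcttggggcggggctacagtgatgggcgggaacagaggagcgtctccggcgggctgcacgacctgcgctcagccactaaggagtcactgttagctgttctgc
Por: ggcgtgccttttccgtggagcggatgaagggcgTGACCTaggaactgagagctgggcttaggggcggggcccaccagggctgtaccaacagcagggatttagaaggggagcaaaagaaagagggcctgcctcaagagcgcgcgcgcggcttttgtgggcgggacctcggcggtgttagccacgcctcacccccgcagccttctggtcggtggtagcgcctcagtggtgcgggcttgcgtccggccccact
The windows are chr8:67318415-67318664 (plus strand) for Cyp11a1, chr8:61183646-61183895 (minus strand) for Fdx1, chr10:101015536-101015785 (minus strand) for Fdxr and chr12:26635810-26636059 (minus strand) for Por.

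The Cyp11a1 window held AGGTCA at 2 places, with the first base 229 and 95 bases before the start. Fdx1 held it once, 201 bases before the start, Por held TGACCT once, 217 bases before the start, and Fdxr held neither. Of the 9 genes, 6 had an entry in the promoter table, Star, Tspo and Cyp17a1 having none, and 3 of these 6 held the motif on either strand. Of all 33469 rat promoter windows of the same length, 14.1% held it. The longer CAAGGTCA, which contains AGGTCA and is a common form of the site of the steroidogenic factor encoded by Nr5a1, was in none of the 6 windows and in 1.33% of all windows. TATAA, searched on both strands, was found before Cyp11a1 and Fdx1 and in 23.97% of all windows. A match describes these letters only.

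Cyp11a1 was measured at 9.80, 5.71 and 13.8 FPKM in the DM rats and at 25.7, 21.9 and 15.7 FPKM in the Nor rats. All 3 DM rats lay below all 3 Nor rats, with DM replicate 2 lowest and DM replicate 3 highest, as for Star. Cyp11a1 thus had a log2 fold change of -1.16 (SE 0.32, 95% interval -1.91 to -0.41), or 0.447 of the Nor level, with an adjusted p of 0.486 (limma). Fdx1 stood at 13.04, 10.1 and 12.2 FPKM in DM and 14.9, 13.7 and 13.98 FPKM in Nor. The groups of Fdx1 were separate but close, with a log2 fold change of -0.28 (SE 0.11) and an adjusted p of 0.649 (limma). Fdxr stood at 2.57, 2.08 and 2.20 FPKM in DM and 3.63, 3.04 and 3.16 FPKM in Nor. Its groups were separate as well, with a log2 fold change of -0.51 (SE 0.14) and an adjusted p of 0.492 (limma).

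Whether the electron donors moved less than the P450 they serve was asked by their ratio within each testis, a comparison chosen after the values had been seen. The FPKM ratio of Fdx1 to Cyp11a1 was 1.33, 1.76 and 0.884 in DM and 0.582, 0.628 and 0.892 in Nor. DM replicate 3 overlapped the Nor rats, and the log2 difference was 0.88 (SE 0.34, exact two-sided permutation p = 0.2). For Fdxr to Cyp11a1 the log2 difference was 0.65 (SE 0.38, exact permutation p = 0.2), also with overlap. A smaller change of the donors than of Cyp11a1 was therefore not shown. Each value sums over all cells of the testis, so these ratios do not describe Leydig cells alone.

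Cyp17a1 encodes the microsomal P450 that hydroxylates pregnenolone and progesterone and then cleaves them to androgen precursors. Its level was 9.58, 8.84 and 9.65 FPKM in the DM rats and 24.3, 36.1 and 26.3 FPKM in the Nor rats. Every DM rat stood far below every Nor rat, and the 3 DM values lay almost on top of each other, with a coefficient of variation of 4.79% against 21.8% in Nor. The log2 fold change was -1.60 (SE 0.15, 95% interval -1.94 to -1.25), which puts the Nor level at 3.02 times the DM level, and the adjusted p was 0.0415 (limma). The exact permutation test of 3 against 3 rats gave p = 0.1, the smallest it can give. The adjusted p of Cyp17a1 lay between 0.0163 and 0.147 with 1 rat at a time removed, and was above 0.05 without DM replicate 1, DM replicate 2, DM replicate 3 or Nor replicate 3. It was 0.0788 without the filter on low values and 0.0909 without limma's mean-variance trend.

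Por and Cyb5a encode the redox partners of this step. Por, NADPH-cytochrome P450 reductase, passes electrons to all microsomal P450s. Its FPKM was 10.002, 10.3 and 10.1 in DM and 9.74, 11.9 and 10.7 in Nor. The groups overlapped, and the fold of DM over Nor was 0.946 with a 95% interval of 0.815 to 1.10 (adjusted p = 0.916, limma). Cyb5a encodes cytochrome b5, which favours the cleavage reaction of Cyp17a1. Its FPKM was 7.60, 7.79 and 9.19 in DM and 7.34, 8.46 and 8.86 in Nor, so that both groups covered almost the same range. The fold of Cyb5a was 0.996, with a 95% interval of 0.827 to 1.20 (adjusted p = 0.996, limma). Both genes are also used outside Leydig cells, and their intervals lie wholly above the fold of 0.331 found for Cyp17a1.

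Hsd17b3 encodes the testicular enzyme that reduces androstenedione to testosterone, and it had the lowest mean of the 9 genes in both groups. The DM rats had 0.980, 0.452 and 1.96 FPKM and the Nor rats 2.83, 1.84 and 2.88 FPKM. DM replicate 3 lay above Nor replicate 2, so the groups overlapped. Its log2 fold change was -1.26 (SE 0.46, 95% interval -2.35 to -0.18), with an adjusted p of 0.624 (limma) and an exact permutation p of 0.2. The fitted fold of Hsd17b3 resembled that of Star, but its SE was the largest of the 9.

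**Figure D2:**
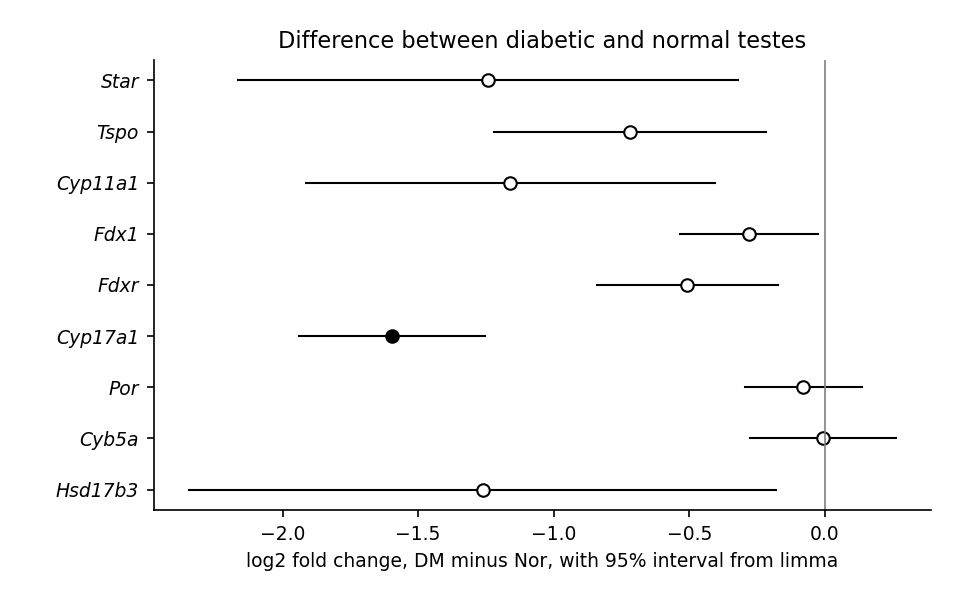
Log2 fold change (DM minus Nor) of each of the 9 genes with its 95% interval from limma; the filled point is the gene with an adjusted p below 0.05. Cyp17a1 stands at -1.60 with a narrow interval, Por and Cyb5a lie near 0, and the intervals of Star, Cyp11a1 and Hsd17b3 are wide.

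Counted over the route, the fitted log2 fold change was negative for all 9 genes, though that of Cyb5a was -0.0062 and turned to 0.023 under median-ratio scaling. Their median was -0.72, beside -0.021 over all genes tested. Of the 9, 1 had an adjusted p below 0.05 and was lower in DM, where 0.0246% of all genes tested did. By the study's criterion of a log2 fold change of at least 1 in size and an unadjusted p below 0.05, 4 were lower (Star, Cyp11a1, Cyp17a1 and Hsd17b3), against 0.846% of all genes. The study screened transcripts with DESeq2, whereas here its cut-off was applied to limma on gene FPKM. The count by this cut-off was 3 with a pseudocount of 1. Without DM replicate 2 it was 1, Cyp17a1. An unadjusted p below 0.05 alone was reached by 7 of the 9, all lower, against 4.99% of all genes lower and 2.47% higher. Groups were separate for 6 of the 9, each lower in DM, against 8.42% of all genes lower and 4.56% higher. The split over all genes depends on the scaling: with median-ratio scaling 1364 genes were separate and lower and 1363 separate and higher, in place of 1713 and 927, and at an unadjusted p below 0.05 the split was 816 to 723 in place of 1015 to 502. The counts of the 9 genes stayed at 6 separate, 4 past the criterion and 1 past the adjusted p under that scaling.

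The 3 DM rats did not carry these genes to the same degree. DM replicate 2 had the lowest DM value for 7 of the 9 genes, all but Por and Cyb5a, and DM replicate 3 had the highest for 5. The 9 genes summed to 72.1, 54.2 and 83.7 FPKM in the DM rats and to 129.6, 141.5 and 108.8 FPKM in the Nor rats. The highest DM sum was below the lowest Nor sum. Leaving out DM replicate 2 brought the log2 fold change of Star to -0.80 and that of Hsd17b3 to -0.78, and leaving out DM replicate 3 brought them to -1.58 and -1.73. The log2 fold change of Cyp17a1 stayed between -1.71 and -1.43 whichever rat was left out.

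In the Nor rats the order by mean was Star, Cyp17a1, Cyp11a1, Fdx1, Por, Cyb5a, Fdxr, Tspo and Hsd17b3. Neighbours from Cyp11a1 down to Fdxr kept this order in every Nor rat, whereas Star and Cyp17a1, Cyp17a1 and Cyp11a1, Fdxr and Tspo, and Tspo and Hsd17b3 did not. In the DM rats the order was Star, Fdx1, Por, Cyp11a1, Cyp17a1, Cyb5a, Fdxr, Tspo and Hsd17b3. Here Cyp17a1 stood at place 5 instead of place 2, and the means from Fdx1 to Cyb5a lay between 11.8 and 8.19 FPKM. Of the neighbours in DM, Cyb5a was above Fdxr, and Fdxr above Tspo, beyond their spread.

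Each of the other genes was next set against Cyp17a1 in the same testis, which takes out differences that all genes of a library share. As whole-testis values, the ratios mix Leydig cells with other cells. The 8 ratios have Cyp17a1 in common, and it was chosen as reference because earlier results of these data had named it. The FPKM ratio of Por to Cyp17a1 was 1.04, 1.17 and 1.05 in DM and 0.400, 0.329 and 0.405 in Nor, a log2 difference of 1.52 (SE 0.11). That of Cyb5a to Cyp17a1 was 0.793, 0.881 and 0.953 in DM and 0.302, 0.235 and 0.337 in Nor, a log2 difference of 1.59 (SE 0.17). In the DM testes, then, Por transcripts per length were as abundant as those of the P450 it serves, and in the Nor testes the P450 exceeded its reductase in every rat.

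The ratios of Fdx1 (log2 difference 1.32, SE 0.22), Fdxr (1.09, SE 0.25) and Tspo (0.88, SE 0.17) to Cyp17a1 were likewise higher in every DM rat than in every Nor rat. Each of these 5 ratios reached the exact permutation p of 0.1, below which 3 against 3 rats cannot go. Benjamini-Hochberg adjustment of the permutation p over the 8 ratios gave 0.16 for each. As the fall of Cyp17a1 was known beforehand, higher ratios of genes that moved less restate it. The ratios of Star, Cyp11a1 and Hsd17b3 overlapped between the groups. Star to Cyp17a1 averaged 1.66 ± 0.750 in DM and 1.23 ± 0.339 in Nor (SD, n = 3, exact permutation p = 0.5). Cyp11a1 to Cyp17a1 averaged 1.03 ± 0.392 and 0.752 ± 0.263 (SD, n = 3, exact permutation p = 0.3), and Hsd17b3 to Cyp17a1 averaged 0.119 ± 0.0771 and 0.0923 ± 0.0360 (SD, n = 3, exact permutation p = 0.7). A difference between the change of Cyp17a1 and those of Star, Cyp11a1 or Hsd17b3 was not detectable with 3 rats a group.

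**Figure D3:**
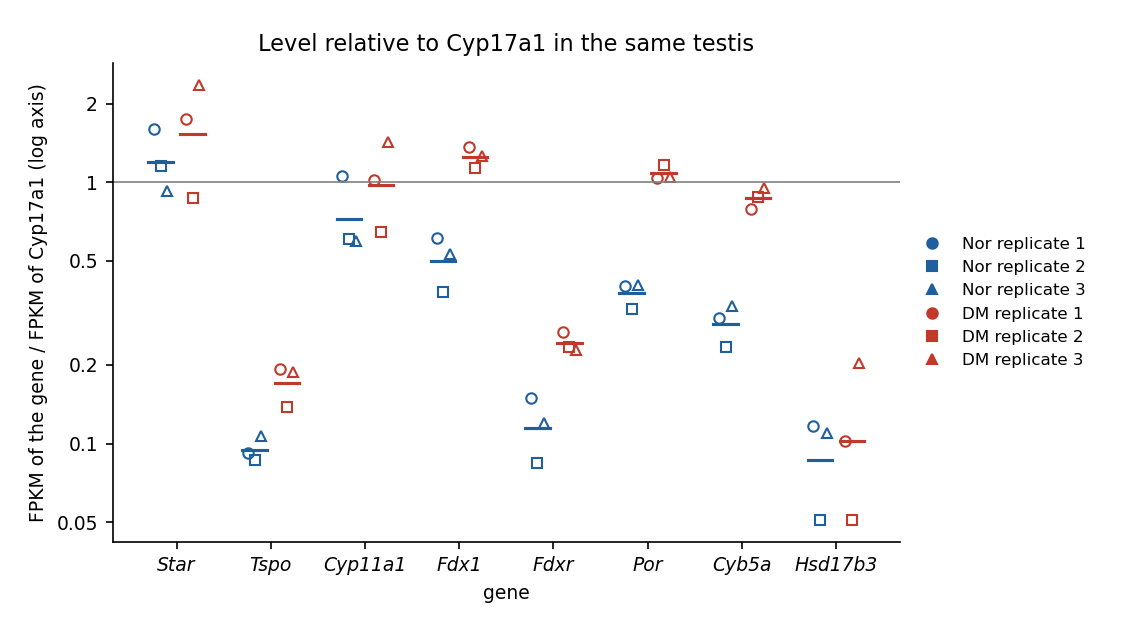
FPKM of each gene divided by that of Cyp17a1 in the same testis (log axis); points are rats and bars are geometric means of a group. Tspo, Fdx1, Fdxr, Por and Cyb5a have every DM rat above every Nor rat, while Star, Cyp11a1 and Hsd17b3 overlap.

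The step between pregnenolone and the androgens is catalysed by 3-beta-hydroxysteroid dehydrogenase, and 1 gene of that family, Hsd3b2, was tested. Hsd3b2 stood at 3.22, 8.68 and 7.47 FPKM in DM and 10.7, 27.3 and 24.9 FPKM in Nor. The groups did not overlap, and replicate 1 was lowest in both. Its log2 fold change was -1.69 (SE 0.46), the lowest fitted value of the pathway genes described here, with an adjusted p of 0.484 (limma). The family has near-identical copies that can share reads, and a second row of the family, LOC108348086, was listed at 0 in 4 of the 6 rats, at 0.510 FPKM in DM replicate 1 and at 1.42 FPKM in Nor replicate 1. The split of reads between copies is therefore uncertain.

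Hsd3b2 belongs to a list of 30 other genes in or around the route. The list holds dehydrogenases, cholesterol carriers, the mitochondrial import complex, further redox proteins and haem oxygenases. It is broader than the enzymes of the route, so its counts and median do not describe those enzymes alone. Of these, 25 had a row and 23 were tested, Hsd3b5 and Hsd17b6 being below the filter on low values. With limma, 0 of the 23 had an adjusted p below 0.05, and at an unadjusted p below 0.05, 4 were lower in DM and 1 was higher. Over all genes tested, 4.99% were lower and 2.47% higher at that unadjusted p. The median log2 fold change was -0.042, with 13 fitted values below 0 and 10 above. By the study's criterion 1 of them, Hsd3b2, was lower.

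The other 3 at an unadjusted p below 0.05 and lower were Pgrmc1, Stard5 and Vdac1. Pgrmc1, a haem-binding membrane protein that associates with microsomal P450s, averaged 11.2 ± 1.44 FPKM in DM and 15.3 ± 0.650 FPKM in Nor (SD, n = 3), a log2 fold change of -0.46 (SE 0.11, adjusted p = 0.399, limma). Stard5, a soluble sterol-binding relative of Star, averaged 0.882 ± 0.0939 and 1.42 ± 0.261 FPKM (adjusted p = 0.598, limma). Vdac1, an outer membrane channel, averaged 10.4 ± 1.49 and 12.9 ± 0.760 FPKM (adjusted p = 0.627, limma). Fdx1l, the second mitochondrial ferredoxin, had the opposite sign, at 16.8 ± 1.81 FPKM in DM and 14.1 ± 0.935 FPKM in Nor (adjusted p = 0.661, limma), with overlap. Groups were separate for 6 of the 23, each lower in DM: Hsd3b2, Pgrmc1, Stard5, Vdac1 and, named after their values were seen, Hsd17b12 and Cyb5b. Over all genes tested 8.42% were separate and lower and 4.56% separate and higher, a split that depends on the scaling. Steroid enzymes outside the route to testosterone were low. Cyp11b2 was listed at 0 in every rat and Cyp21a1 was at most 0.0814 FPKM. Cyp19a1 (aromatase) lay between 0.127 and 0.176 FPKM.

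Markers of the testicular cell types were read beside these results. The 9 Leydig cell markers tested, none of them an enzyme of the route, all had a negative fitted log2 fold change, with a median of -0.996, and summed to 36.9 to 54.4 FPKM in DM and 67.2 to 88.4 FPKM in Nor. With limma 0 of the 9 had an adjusted p below 0.05, 7 had an unadjusted p below 0.05, 3 met the study's criterion and 5 had groups that did not overlap, all lower in DM. Over all genes tested, the last 3 of these calls were reached, lower in DM, by 4.99%, 0.846% and 8.42%. Insl3, the Leydig cell hormone of testicular descent, stood at 3.67 ± 2.77 FPKM in DM and 9.79 ± 1.51 FPKM in Nor (SD, n = 3, adjusted p = 0.484, limma). Lhcgr, the luteinizing hormone receptor, had 2.32, 2.32 and 2.29 FPKM in DM and 4.45, 5.03 and 4.68 FPKM in Nor, a log2 fold change of -0.999 (SE 0.11, adjusted p = 0.0559, limma). Scarb1, the lipoprotein receptor that brings in cholesterol esters, had a log2 fold change of -0.996 (SE 0.10, adjusted p = 0.0530, limma). Both lie just outside the threshold.

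Vcam1 (log2 fold change -1.49), Prlr (-1.47), Hsd11b1 (-0.79) and Inha (-0.34) were the other markers with an unadjusted p below 0.05, with adjusted p between 0.127 and 0.649 (limma). Nr5a1, the nuclear receptor that drives steroidogenic genes, averaged 3.29 ± 0.559 FPKM in DM and 3.32 ± 0.458 FPKM in Nor (SD, n = 3), with overlap and an adjusted p of 0.995 (limma). Nr5a1 is also expressed in Sertoli cells. The part of the Leydig cell markers in the values of the 9 genes was not tested, but each gene could be expressed relative to the mean log2 level of the 9 markers in the same testis, a scale added after the values had been seen.

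On that scale the markers' own mean difference was -0.89 (SE 0.19). Their single log2 fold changes ran from -1.62 (Insl3) to -0.016 (Nr5a1), and that of Cyp17a1 was -1.60. Nr5a1, Ptgds (-0.31) and Inha (-0.34) changed least, and the other markers ran from -1.62 to -0.79 (Hsd11b1). The values of the genes on this scale therefore depend on which markers are averaged. Including the markers that changed least makes the difference of Cyp17a1 larger in size. With all 9 averaged, Cyp17a1 was lower in every DM rat than in every Nor rat. Its log2 difference was -0.71 (SE 0.17, exact permutation p = 0.1, the smallest possible). Star (-0.35), Cyp11a1 (-0.27), Hsd17b3 (-0.37), Tspo (0.17) and Fdxr (0.38) overlapped between the groups. Fdx1 (0.61), Por (0.81) and Cyb5a (0.88) lay higher in every DM rat.

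Among the other cell types, the 10 macrophage markers tested had a median log2 fold change of -0.78. Of these, 5 were lower at an unadjusted p below 0.05 and 5 did not overlap, beside 4.99% and 8.42% of all genes tested that were lower by these calls. The log2 fold changes ran from -0.98 (Cd68) to -0.064 (Mrc1, the most abundant of these markers). Mrc1, Adgre1 (-0.13) and Cd163 (-0.23) were among those that overlapped. The macrophage markers summed to 34.3 to 41.7 FPKM in DM and 45.2 to 53.0 FPKM in Nor. Their part in the result was not tested. The 11 Sertoli cell markers had a median of 0.10, with sums of 382 to 405 FPKM in DM and 337 to 413 FPKM in Nor. The medians were -0.17 over 6 peritubular and smooth muscle markers, -0.19 over 6 endothelial markers, -0.016 over 10 markers of spermatogonia and spermatocytes and 0.011 over 10 spermatid markers. None of the genes on these 5 lists or on the macrophage list had an adjusted p below 0.05 (limma). At an unadjusted p below 0.05, the 5 lists held 1 endothelial marker that was higher in DM, and 1 lower and 1 higher marker of spermatogonia and spermatocytes. Spermatid markers summed to between 13618 and 15871 FPKM in all 6 libraries, so that the germ cell genes of the labelled tissue were present in each.

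**Figure D4:**
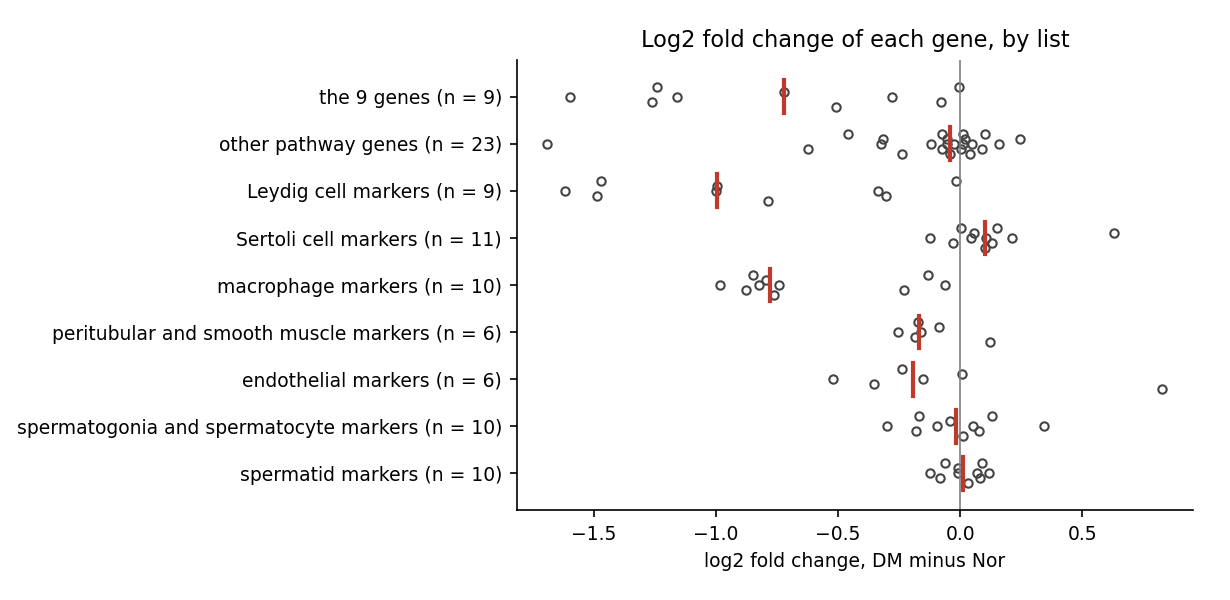
Log2 fold change (DM minus Nor) of each gene tested, by list; circles are genes, spread vertically only for legibility, and red bars are medians. The 9 genes (median -0.72), the Leydig cell markers (-0.996) and the macrophage markers (-0.78) lie to the left of 0, and the other lists centre between -0.19 and 0.10.

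The genes whose profile over the 6 testes was most like that of Cyp17a1 were sought among 14987 genes with a symbol and a mean of at least 1 FPKM, by the root mean square difference of log2 values centred on each gene's mean. The nearest was Prlr, the prolactin receptor, at 0.215. It was followed by Bst2 (0.232), an interferon-induced membrane protein, Laptm5 (0.234), a lysosomal membrane protein of blood cells, Timp1 (0.238), an inhibitor of metalloproteinases, and Reep5 (0.255), a protein that shapes the endoplasmic reticulum. Their log2 fold changes ran from -1.47 (Prlr) to -1.14 (Timp1), with adjusted p between 0.0701 and 0.190 (limma).

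Of the markers and partners, Lhcgr was at place 21 and Scarb1 at place 27 in this order. The other genes of the route came later, with Tspo at 116, Cyp11a1 at 124, Star at 172, Hsd3b2 at 293, Fdxr at 413, Hsd17b3 at 750, Fdx1 at 1233, Por at 3309 and Cyb5a at 6822. Since all points are the same 6 libraries, this order is a description. The other Leydig cell markers were spread over the same range, with Vcam1 at 110, Hsd11b1 at 231, Insl3 at 276, Inha at 664, Ptgds at 974 and Nr5a1 at 8509.

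**Figure D5:**
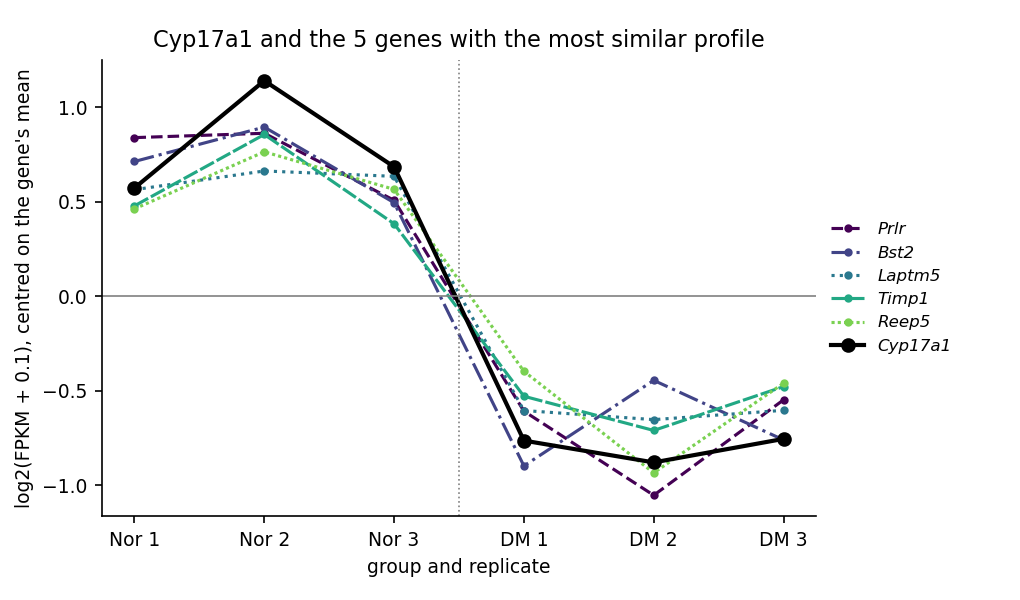
Log2(FPKM + 0.1) of Cyp17a1 and the 5 genes with the most similar profile, each centred on its own mean, in the 3 Nor and 3 DM testes; lines join the samples of a gene only to guide the eye. All 6 genes lie above their mean in every Nor rat and below it in every DM rat.

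The 6 libraries themselves were alike. They had between 27058 and 27337 genes above 0 FPKM, and the relative depth read from the steps between low FPKM values was 0.966 to 1.09 in DM and 0.893 to 1.02 in Nor. The depth in reads is unknown. Correlations of log2 values between samples ran from 0.957 to 0.966, and no pair of libraries shared its values: a single gene in 1 pair (DM replicate 2 and Nor replicate 1) had the same value above 0. Among the DM libraries, DM replicate 2, lowest for most of the 9 genes, had the lowest relative depth (0.966), and DM replicate 3, highest for 5 of them, had the highest (1.09); the part of depth in these values was not tested.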

How the data were processed

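RNA of 3 DM and 3 Nor rat testes was sequenced paired-end; the labels name circRNA, lncRNA and mRNA as targets and mention both poly(A)+ and poly(A)- fractions, so the RNA selection is not clear. According to the methods and processing notes, the authors checked reads with FastQC, compared them with rRNA by BWA, aligned with STAR and assembled with StringTie. FPKM per gene were deposited, normalized by the authors for transcript length and library size. The genome build, the annotation and the tool versions are not given in the sources used here. No counts were used, so a count test was not possible, and depth in reads is unknown.

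Values were taken as log2(FPKM + 0.1), so fold changes of low genes are understated. A fold is the fitted difference of mean log2 values turned back to a plain scale, not a ratio of mean FPKM. Genes averaging 0.5 FPKM or more were kept, and DM was compared with Nor by limma 3.58.1 (lmFit and eBayes with trend, R 4.3.3), with p two-sided and Benjamini-Hochberg adjusted over all 20338 genes. The fit was tested on simulated data. Single genes and ratios were compared by the exact two-sided permutation test of scipy 1.17.1 (Python 3.11.15), whose smallest p is 0.1 for 3 against 3. The 9 genes and all gene lists were chosen with earlier results of these data known.

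Named beside the 9 genes were listed pathway genes and Leydig cell markers with an unadjusted p below 0.05, and each Hsd3b gene tested. Also named were Insl3, Lhcgr, Nr5a1, steroid enzymes outside the route, and the 5 genes nearest to the gene with the largest change. Alternatives were another pseudocount or filter, other scalings, eBayes without trend or robust, protein-coding genes only, the replicate number as a block and leaving out each rat. The replicate numbers belong to different animals. Promoters came from RefSeq (GRCr8), a build that may not be the authors'. Of the listed genes, Hsd3b1, Hsd3b3, Hsd3b6, Fdx2, Fdx1b, Cyp11b1, Cyp11b3, Gstm2 and Pecam1 had no row under that symbol and were not analysed here.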

Additional observations from a re-analysis of the deposited data

How the results depend on the processing

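Of 167 values recomputed under the alternatives other than leaving out a rat, 159 were classed as the same. Of 126 values with a rat left out, 111 were. For a log2 fold change this meant the same sign and the same side of an adjusted p of 0.05. For a count it meant a value within a set factor of the main count. For a ratio it meant the same sign and a shift smaller than its pooled SD, with no threshold. The count of the 9 genes with an adjusted p below 0.05 was 0 without the filter, with eBayes without trend and with the replicate block, and 0 to 1 with each rat left out; it was 0 without DM replicate 1, DM replicate 2, DM replicate 3 or Nor replicate 3. The log2 fold change of Cyp17a1 stayed at -1.60 under those 3 settings, with adjusted p (limma) of 0.0788, 0.0909 and, with the replicate block, 0.186, and ran from -1.71 to -1.43 with each rat left out. Fewer samples or more genes tested enter some of these fits, and the cause of the losses was otherwise not tested. By the study's criterion the count of the 9 genes ran from 1 (without DM replicate 2) to 4 with each rat left out. The log2 fold change of Cyb5a was 0.023 with median-ratio scaling and ran from -0.091 to 0.049 with each rat left out, and the log2 ratio of Hsd17b3 to Cyp17a1 ran from -0.11 to 0.77. With the replicate block 1 of the other pathway genes, Hsd3b2, had an adjusted p below 0.05 (0.0370, limma). Deviations of same-numbered samples correlated at 0.106, 0.0153 and 0.0979. DM replicates 1 and 3 correlated best with the Nor sample of their own number, while DM replicate 2 correlated better with Nor replicate 3 (0.0318). The numbers belong to different animals, and whether same-numbered samples shared a handling step was not tested. Precision is limited by 3 rats a group, and depth in reads is unknown.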
